A study of Mus musculus with 2 samples.

Results

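The ligands and receptors of the vascular endothelial growth factor (VEGF) and angiopoietin systems were compared between the left ventricles of heart-specific Bmal1 knockout (H-Bmal1-/-) mice and of control mice. The 10 genes were chosen by name: the VEGF family ligands Vegfa, Vegfb, Vegfc and Pgf, the VEGF receptors Flt1 and Kdr, the angiopoietins Angpt1 and Angpt2, and the TIE receptors Tek and Tie1. They were read by 12 of the 55676 noncontrol probes kept, on 22 of 59036 spots, and made up 10 of the 13837 genes that could be named and measured. BMAL1, encoded by Arntl, is the transcription factor that pairs with CLOCK in the molecular circadian clock, and the study asked how its loss from the heart altered cardiac gene expression. The H-Bmal1-/- mice carried a floxed Bmal1 allele and a Cre transgene under the αMHC (Myh6) promoter, which is active in cardiomyocytes. Control mice were littermates with the same floxed allele and no Cre transgene, although their genotype is labelled as wild type, and no array of Cre-only mice was analysed here. All mice were male and 12 weeks old, and hearts were taken at ZT2, that is 2 h after lights on. The paper names as a limit that, with ZT2 alone, a difference might only reflect a shifted peak or trough. At this age it reports enlarged hearts and reduced fractional shortening in the H-Bmal1-/- mice. Differences that come with that state and those of Bmal1 loss itself cannot be told apart in these pools. Total RNA of 6 animals per genotype was combined into 1 pool, and each pool was read on 1 Agilent one-colour array. The values therefore describe the 2 pools: no variation between animals could be measured, no test was made, and no difference below can be set against replicate error.

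VEGF-A is the main growth factor for endothelial cells and is secreted in the heart largely by cardiomyocytes. It signals through KDR (VEGFR2), whereas FLT1 (VEGFR1) binds VEGF-A tightly but signals weakly and limits how much ligand reaches KDR. Angiopoietin 1 activates the endothelial receptor TEK (TIE2) to keep vessels quiescent, and which cells of the ventricle made it was not measured here. Angiopoietin 2, released by endothelial cells, competes for the same receptor.

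Angpt1 stood apart from the other members. Its signal was 2.56-fold lower in the H-Bmal1-/- pool than in the control pool, whereas the log2 ratios (H-Bmal1-/- minus control) of the other 9 genes lay between -0.38 and 0.07. Of the 10 genes, 9 had a ratio below 0, with a median of -0.25, against 51.6% of all measured genes below 0 and a median of -0.01 over them. Angpt1 was the only member at least 1.5-fold lower, a size reached by 5.85% of measured genes, and no member was at least 1.5-fold higher, as 6.16% of measured genes were. Without Angpt1 the median of the members was -0.22. Fewer cells of a type and less RNA per cell cannot be told apart in RNA of whole ventricle. Ratios were taken after dividing each signal by the 75th percentile of its own array, and without that scaling 6 of the 10 were below 0 with a median of -0.09, beside a median of 0.14 over all genes. The split of all genes past 1.5-fold also depended on it, with 810 lower and 852 higher after scaling, against 530 lower and 1337 higher without.

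**Figure D1:**
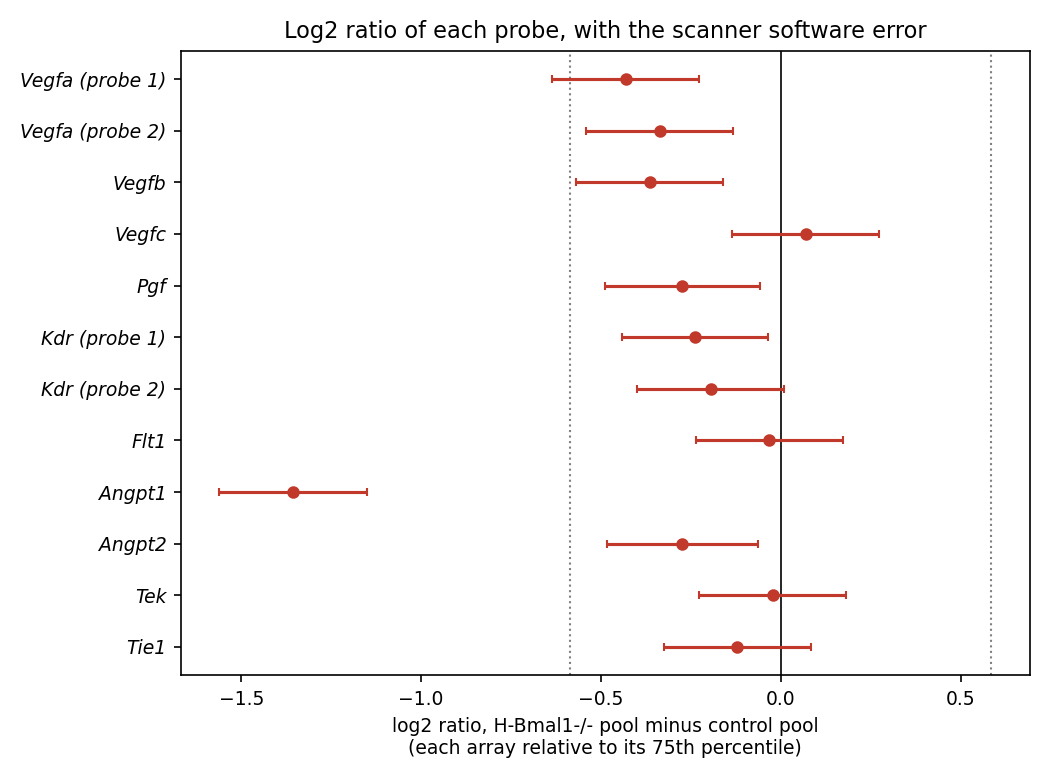
Log2 ratio (H-Bmal1-/- pool minus control pool) of each of the 12 probes after scaling to the 75th percentile of each array, by gene and role. Points are means over the spots of a probe, error bars are the signal error given by the scanner software and not a spread between animals, and the dotted lines mark 1.5-fold; Angpt1 at -1.36 is the only gene beyond them.

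The arrays gave usable signals for all members. Of the 59305 noncontrol spots, 29672 were well above background in the H-Bmal1-/- pool and 29288 in the control pool, and none was saturated. All 12 member probes were well above background on both arrays. The 75th percentile of the signal was 190.1 units in the H-Bmal1-/- pool and 171 units in the control pool, so that the scaling lowered every ratio by 0.15 on the log2 scale. Among 245 probes printed at least 8 times and well above background on both arrays, the SD of the log2 ratio between spots had a median of 0.07. The 95th percentile of that SD was 0.25. The scanner software's own error, which is the error quoted below, was larger than that median and came to 0.20 or 0.21 for the log2 ratio of each member probe. Arntl, the targeted gene, had 328 units in the H-Bmal1-/- pool and 513 units in the control pool (log2 ratio -0.80). Whether its probe reads the deleted exon is unknown here, so this value is only a partial check of the labels. Nr1d1, a direct target of the BMAL1 and CLOCK pair, had 101 units in the H-Bmal1-/- pool and 385 units in the control pool (log2 ratio -2.09).

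**Figure D2:**
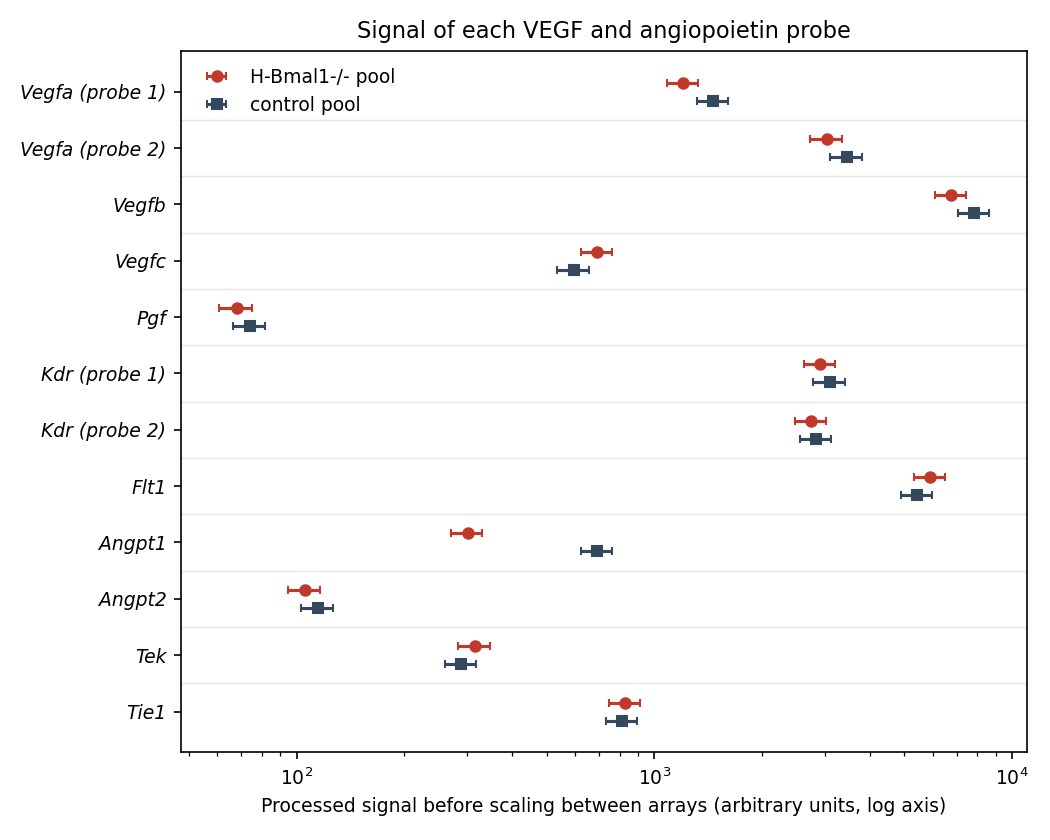
Processed signal of each member probe on a log axis, in arbitrary intensity units before scaling, with the H-Bmal1-/- pool above the control pool in each row. Each point is the mean over the spots of a probe, and error bars are the scanner software's error; levels of different probes cannot be set against each other, and the gap for Angpt1 (300.2 against 692 units) is the widest.

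Vegfa and Vegfb had the lowest ratios of the VEGF family ligands. One Vegfa probe, printed once, had 1204 ± 120 units in the H-Bmal1-/- pool and 1461 ± 146 units in the control pool (± software error, as for each single spot below). The other Vegfa probe, printed in 2 spots, had 3106 and 2968 units in the H-Bmal1-/- pool against 3453 and 3450 units in the control pool, and the spots did not overlap. The probes gave log2 ratios of -0.43 and -0.34, a mean of -0.38 or 1.30-fold lower in the H-Bmal1-/- pool. Both probes thus pointed the same way, and 11.6% of measured genes had a ratio as low or lower.

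Vegfb encodes a ligand of FLT1 that is abundant in heart muscle and does not bind KDR. Its probe had 6761 ± 676 units in the H-Bmal1-/- pool and 7836 ± 784 units in the control pool, a log2 ratio of -0.36 or 1.29-fold lower. Pgf encodes placental growth factor, another ligand that binds FLT1 alone of the signalling VEGF receptors. Its probe was dim, with 67.9 ± 7.18 units in the H-Bmal1-/- pool and 73.9 ± 7.76 units in the control pool, and its log2 ratio was -0.27. The raw signal of the Pgf spot was only 3.52 times its local background in the H-Bmal1-/- pool and 4.42 times in the control pool. The ratios of Vegfa, Vegfb and Pgf stayed below 0 under all 10 processing alternatives, at -0.40 to -0.23 for Vegfa, -0.38 to -0.21 for Vegfb and -0.29 to -0.12 for Pgf. These alternatives changed the scaling, the background correction or the choice of probes, and without scaling all 3 ratios came closer to 0.

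Vegfc, which encodes the main lymphatic growth factor and a ligand of FLT4 (VEGFR3), was the only member with a ratio above 0. Its probe had 693 ± 69.3 units in the H-Bmal1-/- pool and 595 ± 59.5 units in the control pool, a log2 ratio of 0.07 that was smaller than the software error of 0.20. It was 0.05 to 0.22 under the alternatives. Between ligands within the same arrays, the ratio of Vegfa was 0.45 lower than that of Vegfc on the log2 scale (1.37-fold, software error 0.29).

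The promoters of these ligands are shown because BMAL1 and CLOCK bind the canonical E-box, CACGTG, and because Vegfa is a textbook target of hypoxia-inducible factors (HIF), whose response element has the core ACGTG. RefSeq promoter windows (GRCm38.p6, 250 bases before to 50 after a transcription start) were matched for 8 of the 10 genes, giving 10 windows, and none was matched for Angpt1 or Angpt2. The 250 upstream bases are printed 5′ to 3′ on the strand of the gene for the outer Vegfa start (chr17:46032378-46032627, minus strand), the inner Vegfa start (chr17:46025164-46025413, minus strand) and Vegfb (chr19:6987652-6987901, minus strand). Capitals mark ACGTG and the GC box, GGGCGG, the binding motif of Sp1, on either strand.
Vegfa, outer start: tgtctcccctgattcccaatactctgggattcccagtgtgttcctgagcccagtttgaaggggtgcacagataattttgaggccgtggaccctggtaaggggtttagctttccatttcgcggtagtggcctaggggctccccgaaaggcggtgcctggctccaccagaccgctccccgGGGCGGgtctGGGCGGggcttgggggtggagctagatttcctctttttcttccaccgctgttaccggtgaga
Vegfa, inner start: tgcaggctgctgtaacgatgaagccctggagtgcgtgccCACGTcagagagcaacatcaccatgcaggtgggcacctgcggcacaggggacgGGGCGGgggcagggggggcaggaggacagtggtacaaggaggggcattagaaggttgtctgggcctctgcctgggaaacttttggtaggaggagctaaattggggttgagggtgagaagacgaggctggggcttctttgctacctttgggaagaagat
Vegfb: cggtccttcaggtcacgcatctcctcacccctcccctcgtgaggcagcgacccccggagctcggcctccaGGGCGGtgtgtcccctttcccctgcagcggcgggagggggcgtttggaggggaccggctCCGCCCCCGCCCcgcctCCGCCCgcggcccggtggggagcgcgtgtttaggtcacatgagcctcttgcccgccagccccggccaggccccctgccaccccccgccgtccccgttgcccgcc
The canonical E-box was found in 0 of the 10 windows of the members, against 7.15% of 32851 windows of all genes. ACGTG, which also lies within CACGTG, was found in 1 of the 10 windows, that of the inner Vegfa start, against 19.6% of all windows. On the minus strand the inner start lies downstream of the outer one, so this match falls inside the transcribed gene. The window of the outer Vegfa start held 0 matches to ACGTG. The GC box was found in 7 of the 10 windows, against 35.7% of all windows. Such matches describe letters within 300 bases only, on both strands, and a window without a motif says nothing about binding elsewhere.

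Of the VEGF receptors, Kdr had a small negative ratio that its repeated spots gave precisely, and Flt1 had a ratio near 0. The first Kdr probe was printed in 10 spots. They ranged from 2755 to 3051 units with a median of 2902 in the H-Bmal1-/- pool, and from 2896 to 3174 units with a median of 3130 in the control pool. The unscaled signals overlapped between the pools, but each of the 10 spots was lower on the H-Bmal1-/- array than the same spot on the control array, and after scaling the ranges did not overlap. The log2 ratio of this probe was -0.24 ± 0.04 (SD between 10 spots of the same pair of arrays). The second Kdr probe, with 2748 ± 275 units in the H-Bmal1-/- pool and 2831 ± 283 units in the control pool, had a log2 ratio of -0.19, and the mean over both probes was -0.22, or 1.16-fold lower. The spots measure the same 2 pools, so their spread shows how exactly the arrays were read and not how the animals varied. The choice of scaling moved Kdr more than the spots did, since its ratio was -0.07 without scaling.

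Flt1 had 5898 ± 590 units in the H-Bmal1-/- pool and 5429 ± 543 units in the control pool. After scaling its log2 ratio was -0.03, which is 1.02-fold lower, and it turned to 0.12 without scaling and to 0.02 after normexp background correction. No direction can therefore be given for Flt1. Set against its receptors within the same arrays, where a common scaling factor cancels, the ratio of Vegfa was 0.35 lower than that of Flt1 and 0.17 lower than that of Kdr (software error 0.29 each). The ratios of the other FLT1 ligands were 0.33 lower than that of Flt1 for Vegfb and 0.24 lower for Pgf. Of these 4 differences, the one between Vegfa and Flt1 and the one between Vegfb and Flt1 exceeded the software error.

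Angpt1 had 300.2 ± 30.1 units in the H-Bmal1-/- pool and 692 ± 69.3 units in the control pool. Its log2 ratio of -1.36 ± 0.20 (software error) was among the lowest measured: 157 genes, Angpt1 included, had a ratio as low or lower, or 1.13% of them. Of the 13045 genes well above background on both arrays, 88 were as low or lower. The signal was far from the background in both pools, since the raw spot was 17.1 times its local background in the H-Bmal1-/- pool and 35.1 times in the control pool. Under the 10 alternatives the log2 ratio ran from -1.37 to -1.18, and Angpt1 remained more than 1.5-fold lower under each. The value rests on 1 probe printed in 1 spot per array, so no other spot or probe of the gene was available to set beside it.

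Angpt2 did not share this difference. Its probe had 105 ± 10.8 units in the H-Bmal1-/- pool and 114 ± 11.7 units in the control pool, a log2 ratio of -0.27, and the raw spot was 4.79 times its local background in the H-Bmal1-/- pool and 4.92 times in the control pool. The ratio ran from -0.29 to -0.11 under the alternatives. Within the same arrays the ratio of Angpt1 was 1.08 lower than that of Angpt2 on the log2 scale, or 2.12-fold (software error 0.29).

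The receptors of the angiopoietins had ratios near 0. Tek, which encodes the receptor that both angiopoietins bind, had 315 ± 31.6 units in the H-Bmal1-/- pool and 288 ± 28.9 units in the control pool, a log2 ratio of -0.02. Tie1, which encodes a coreceptor without a high-affinity ligand of its own in this family, had 829 ± 83.0 units in the H-Bmal1-/- pool and 812 ± 81.2 units in the control pool, a log2 ratio of -0.12. Both ratios were smaller than the software error, and both were above 0 without scaling, at 0.13 for Tek and 0.03 for Tie1. The ratio of Angpt1 was 1.33 lower than that of Tek (2.52-fold) and 1.24 lower than that of Tie1 (2.36-fold), differences that a scaling factor common to an array does not alter.

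**Figure D3:**
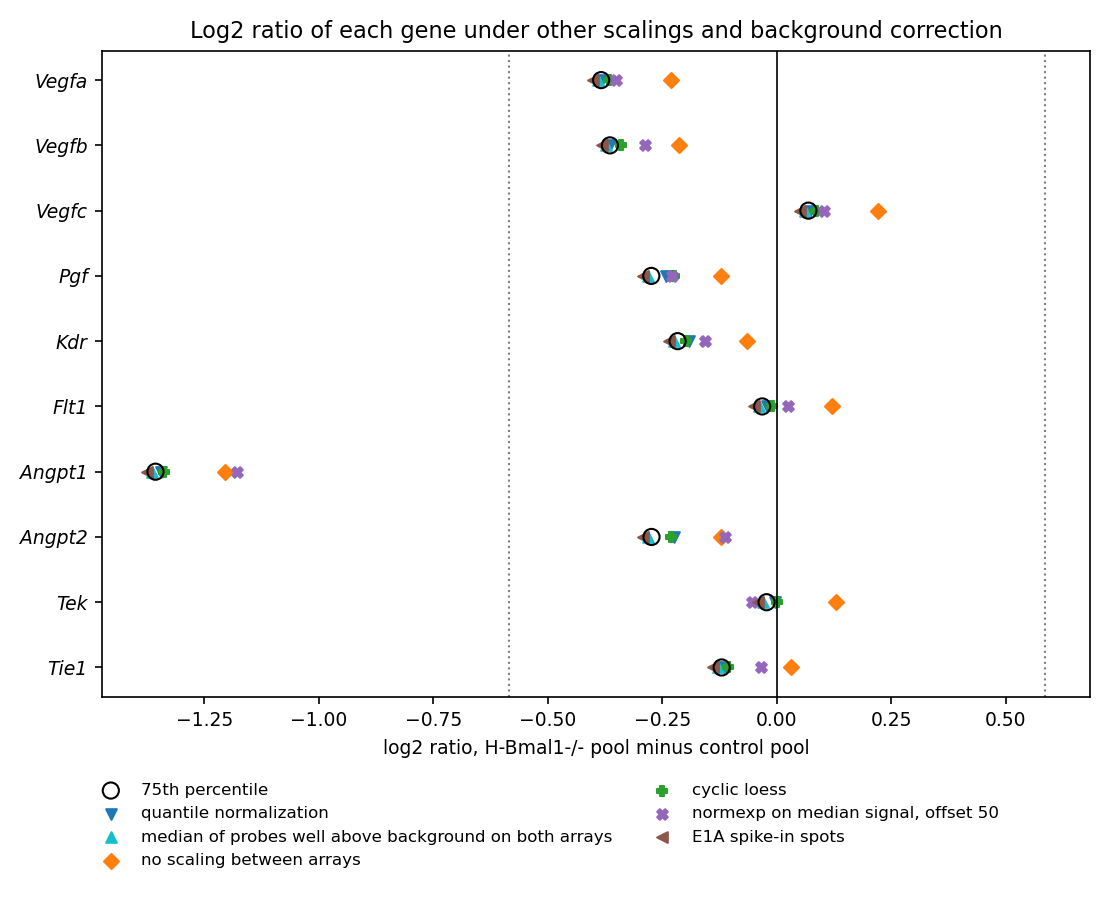
Log2 ratio (H-Bmal1-/- pool minus control pool) of the 10 genes after scaling to the 75th percentile (open circles) and under 6 other scalings or background corrections; dotted lines mark 1.5-fold. Angpt1 stayed between -1.37 and -1.18, whereas without scaling Flt1, Tek and Tie1 lay above 0.

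The other genes of these families that were measured had ratios within 1.5-fold. Of 6 genes in this list 5 were measured, of which 2 were below 0 and 3 above 0, with a median of 0.01 that the alternatives placed between -0.06 and 0.17. Vegfd, which encodes the other ligand of FLT4, had 185 units in the H-Bmal1-/- pool and 136 units in the control pool (log2 ratio 0.30), and the ratio of Flt4 itself was 0.06. The neuropilin coreceptors had ratios of 0.01 for Nrp1 and -0.19 for Nrp2, and that of Ptprb, the phosphatase that restrains TEK, was -0.13. The angiopoietin-like proteins are named for their likeness to the angiopoietins but do not bind TEK. Of 6 such genes, 2 were at least 1.5-fold lower and 1 at least 1.5-fold higher, with a median of 0.00097. Over all measured genes 5.85% were that much lower and 6.16% that much higher. The ratio of Angptl1 was -1.16, from 16.1 units in the H-Bmal1-/- pool and 32.3 units in the control pool, and that of Angptl4, a PPAR target that inhibits lipoprotein lipase, was -0.86. Angptl7 lay on the other side, with a ratio of 1.17. The members of this list thus went both ways.

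Signal transduction genes downstream of the receptors were mostly close to 0. Of 28 measured, 17 were below 0 and 11 above 0, with a median of -0.08, and without scaling 10 were below 0 with a median of 0.07. Akt1, a kinase that both KDR and TEK activate through PI3K, was the only one at least 1.5-fold lower, with 5884 units in the H-Bmal1-/- pool and 9428 units in the control pool (log2 ratio -0.83). Pik3r1, the regulatory subunit of PI3K, followed with -0.56 and Plcg1, the phospholipase recruited by KDR, with -0.45. Hspb1, a small heat shock protein that VEGF signalling phosphorylates, was the only one at least 1.5-fold higher (log2 ratio 0.64). The shares over all measured genes were 5.85% for lower and 6.16% for higher. Nos3, endothelial nitric oxide synthase, had a ratio of -0.05.

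Oxygen sensing genes and HIF targets were examined because Vegfa is one of those targets. Of 9 oxygen sensing genes measured, 3 were below 0 and 6 above 0, with a median of 0.08. Hif1a, the oxygen-regulated subunit, had a ratio of 0.19 and Epas1, which encodes HIF-2α, one of -0.11. Egln1, the main prolyl hydroxylase that marks HIF subunits for destruction, had 711 units in the H-Bmal1-/- pool and 987 units in the control pool (log2 ratio -0.63). Hif3a was at least 1.97-fold lower, a bound given because it was not well above background in the H-Bmal1-/- pool. Of 17 HIF target genes other than Vegfa, 7 were below 0 and 10 above 0, with a median of 0.11. Ddit4, which encodes an inhibitor of mTOR signalling, had the highest ratio of those measured on both arrays, at 1.05. The ratio of the glucose transporter gene Slc2a1 was 0.40, and those of Pdk1 and Ankrd37 were -0.24 and -0.25. Pfkfb3 had the lowest mean, -1.51, but its 2 probes disagreed, at -3.06 and 0.03. Car9 was at least 2.44-fold higher, being not well above background in the control pool. The ratio of Vegfa, -0.38, thus lay below the median of this list.

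**Figure D4:**
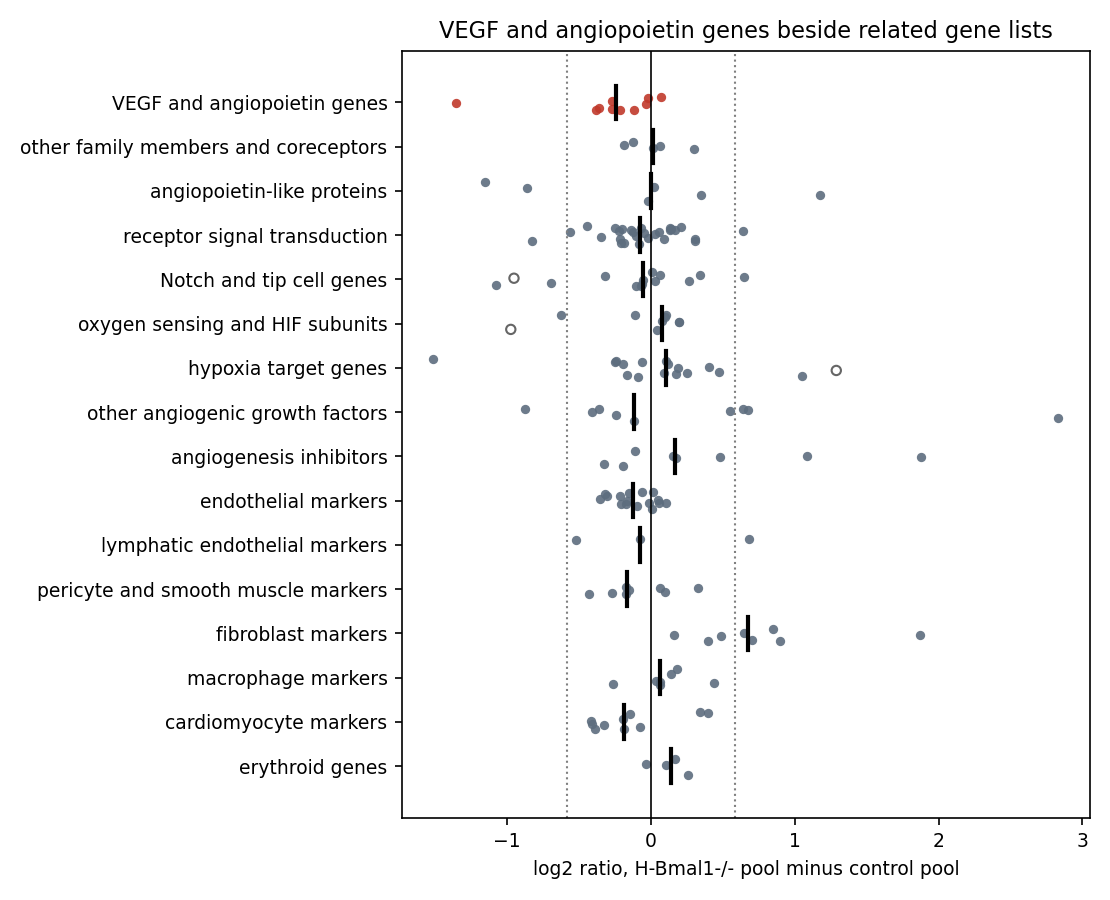
Log2 ratios (H-Bmal1-/- pool minus control pool) of the 10 members and of the genes of each of the 15 other lists, 1 point per gene, with black bars at the medians and dotted lines at 1.5-fold. Open circles are genes well above background on 1 array only, given at their bound. Angpt1 lies below every cell type marker, and only 1.13% of all measured genes were as low or lower.

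Markers of the cells of the ventricle were set beside the members. Of 16 endothelial markers 11 were below 0 and none passed 1.5-fold, with a median of -0.13. Their summed level was 482 in the H-Bmal1-/- pool and 545 in the control pool in multiples of each array's 75th percentile. This sum and those below add different probes and are carried by the brightest, so they do not give the amount of a cell type. Fabp4 was the brightest of the 16, with 43389 units in the H-Bmal1-/- pool and 48879 units in the control pool. The endothelial markers ranged from -0.36 for Sox17 to 0.10 for Emcn, and the 4 receptors Kdr, Flt1, Tek and Tie1, with a median of -0.08, all lay within that range. Many other genes did too, since 12.5% of measured genes were as low as Vegfb (-0.36) or lower, against 61.8% for Vegfc (0.07). Lying within that range therefore does not set the receptors apart. Of 8 pericyte and smooth muscle markers 5 were below 0 and none passed 1.5-fold, with a median of -0.16 and a summed level of 81.6 in the H-Bmal1-/- pool and 85.1 in the control pool. Pdgfrb, which marks pericytes, had a ratio of -0.17, and the ratio of Angpt1 was 1.18 lower than it (2.27-fold). Of 10 cardiomyocyte markers 8 were below 0, with a median of -0.19, a range from -0.42 for Tnni3 to 0.39 for Actn2, and a summed level of 4423 in the H-Bmal1-/- pool and 4716 in the control pool. Without scaling the medians were 0.02 for the endothelial, -0.01 for the pericyte and smooth muscle and -0.04 for the cardiomyocyte markers, beside 0.14 over all genes. The defining markers of heart muscle and of endothelium were thus present in both pools, as the labelled tissue implies.

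Fibroblast markers lay on the other side of 0. All 8 were above 0, with a median of 0.67 and a summed level of 444 in the H-Bmal1-/- pool and 296 in the control pool. Of them 5 were at least 1.5-fold higher, against 6.16% of all measured genes. The highest ratios were those of the matrix genes Postn (1.87), Col1a1 (0.90) and Lum (0.84). The lowest were those of Tcf21 (0.16), Pdgfra (0.39) and Dcn (0.49), which stayed within 1.5-fold. Of 7 macrophage markers measured 6 were above 0, with a median of 0.06 and a summed level of 19.2 in the H-Bmal1-/- pool and 17.9 in the control pool. Of 3 lymphatic endothelial markers measured 2 were below 0, and the other, Pdpn, was at least 1.5-fold higher (log2 ratio 0.68). The summed level of these markers was 2.69 in the H-Bmal1-/- pool and 2.79 in the control pool. Of 4 erythroid genes measured 3 were above 0, with a summed level of 1632 in the H-Bmal1-/- pool and 1509 in the control pool. Every one of the 56 cell type markers measured had a higher ratio than Angpt1, the lowest being Prox1 at -0.52. Only 1.13% of all measured genes were as low as Angpt1 or lower, so this count says little about the markers. No marker was listed at 0, and the part of these cell types in the ratios of the members was not tested.

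**Figure D5:**
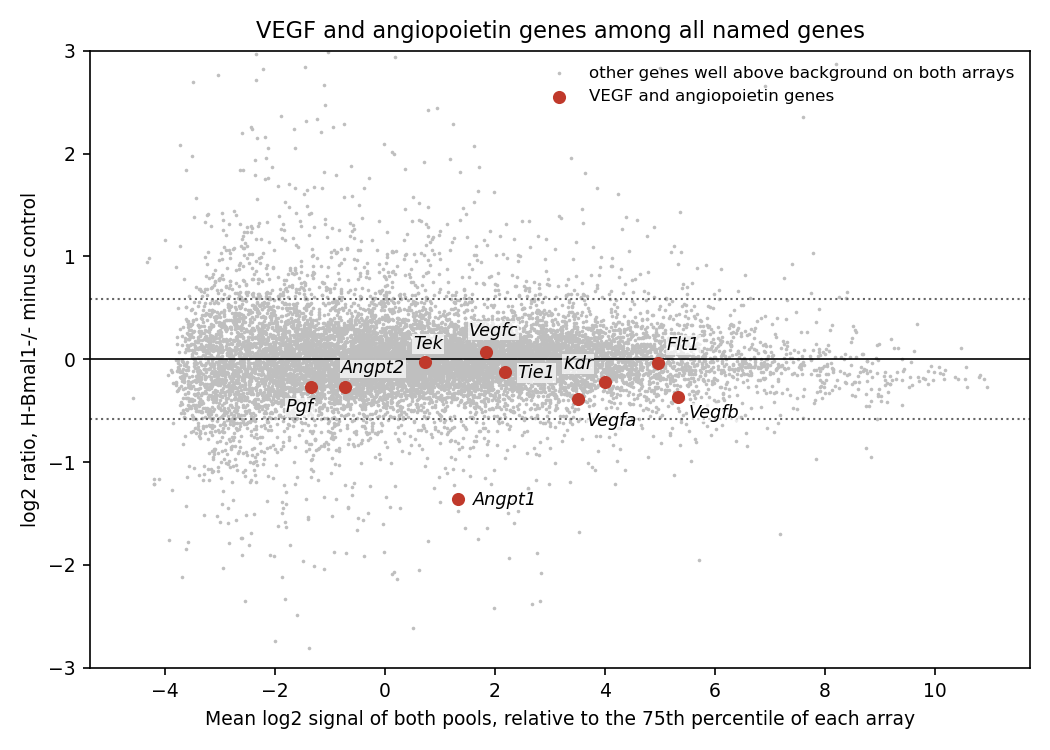
Log2 ratio (H-Bmal1-/- pool minus control pool) of the 13045 genes well above background on both arrays against their mean scaled log2 signal, with the 10 members named and dotted lines at 1.5-fold. The axis stops at 3 on either side and leaves out 7 genes; Angpt1 lies at -1.36, and the other members lie within the band between the dotted lines.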

How the data were processed

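Total RNA of left ventricles was labelled with Cy3 and hybridised to Agilent one-colour mouse arrays, 1 pool of 6 animals per genotype. The deposited intensity values were the processed signals of Agilent Feature Extraction, from which the authors' software had already subtracted background. The submitters' notes name version 10.5.1.1 and the file headers 10.10.1.1. The deposited value table held the same intensity signals multiplied by 1 factor per array and was used as an alternative. Depth does not apply to arrays, and 1 array per genotype limits the precision.

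Control spots and 269 spots with outlier flags were left out. Probe accessions were matched to symbols through a RefSeq table (GRCm38.p6), which named 26759 of 55676 probes. Log2 of the signal minus log2 of the array's 75th percentile was averaged over spots and then over those probes of a gene that Feature Extraction marked as well above background in either pool. A gene marked in 1 pool only was given as a bound. The bound was taken against the higher of its signal in the other pool and that array's lowest marked signal. The text names every member, Arntl and Nr1d1, and of each other list up to 3 lowest and 3 highest genes. Slc2a1, Nos3, Hif1a, Epas1 and Pdgfrb were added for their known roles with their values seen, where that rule did not name them already. Of the listed genes, 1 is not reported here and was left out of the counts. The members and lists were chosen with earlier results of these data known. Alternatives were quantile, cyclic loess, median, spike-in and no scaling, normexp correction (limma 3.58.1, R 4.3.3, offset 50) on median signals, the value table, other probe choices and other fold thresholds. Calculations used Python 3.11.15, numpy 2.4.6 and pandas 2.3.3, and the code was tested on simulated data.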

Additional observations from a re-analysis of the deposited data

How the results depend on the processing

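No paired analysis was possible because each genotype had 1 pool on 1 array, and no replicate could be left out. Under the 10 alternatives for scaling, background and probes, Angpt1 remained the only member at least 1.5-fold lower, and no member was 1.5-fold higher. The median of the 10 members was -0.094 without scaling and -0.14 after normexp on median signals, where the median of all genes was 0.14 and -0.0042. Members below 0 numbered 9, except for 6 without scaling and 8 after normexp and after cyclic loess. At the lower fold threshold tried, 3 members were lower (Vegfa, Vegfb and Angpt1). Of 13837 genes, 810 were at least 1.5-fold lower and 852 higher, against 530 and 1337 without scaling, 248 and 369 after normexp, and 1663 and 1622 with all probes of each gene, where 20282 genes were counted. At that lower threshold these counts were 2073 and 1963, and at 2-fold 285 and 334. Scaling to the E1A spike-in spots, chosen after seeing the data, shifted every ratio by -0.02. The cause of these movements was not tested. The dimmest members, Pgf and Angpt2, were the least far above local background, and all values rest on 1 array per genotype.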

Other observations

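Some other genes that act on vessels had ratios farther from 0, on either side, than any VEGF or angiopoietin member except Angpt1. Of these, Ccn2 (2.83) and Thbs1 (1.88) also lay farther from 0 than Angpt1 (-1.36). Of 14 Notch and tip cell genes, which set how sprouting endothelial cells divide their roles, 8 were below 0 and 6 above 0, with a median log2 ratio (H-Bmal1-/- minus control) of -0.06, and without scaling 4 were below 0. Apln, which encodes the apelin peptide of tip cells, had 351 units in the H-Bmal1-/- pool and 668 units in the control pool (log2 ratio -1.08), and the ratio of its receptor gene Aplnr, which was named after its value was seen, was -0.07. Hey2 was at least 1.94-fold lower, a bound given because it was not well above background in the H-Bmal1-/- pool. Notch1 had 72.9 units in the H-Bmal1-/- pool and 106 units in the control pool (log2 ratio -0.70). In this list 3 genes were at least 1.5-fold lower, Hey2 only as a bound, and 1 was at least 1.5-fold higher. Over all measured genes these shares were 5.85% and 6.16%. Esm1, another tip cell gene, had 362 units in the H-Bmal1-/- pool and 208 units in the control pool (log2 ratio 0.64).

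Of 9 other angiogenic growth factors measured, 5 were below 0 and 4 above 0, with a median of -0.12, or 0.03 without scaling. At least 1.5-fold lower was 1 of them and at least 1.5-fold higher were 3, against 5.85% and 6.16% of all measured genes. The 3 were Ccn2, Pdgfc (log2 ratio 0.68) and Igf1 (0.64, mean of 4 probes). Ccn2, connective tissue growth factor, had 16317 units in the H-Bmal1-/- pool and 2061 units in the control pool, a log2 ratio of 2.83, and Fgf9 had 359 units in the H-Bmal1-/- pool and 593 units in the control pool, a log2 ratio of -0.87. Of 8 angiogenesis inhibitors, 3 were below 0 and 5 above 0, with a median of 0.16. Thbs1, thrombospondin 1, had 239.6 units in the H-Bmal1-/- pool and 58.7 units in the control pool (log2 ratio 1.88), and the mean ratio of the 2 probes of Serpinf1, which encodes pigment epithelium-derived factor, was 1.09. Each of these is 1 array against 1 array, with no test. All 8 fibroblast markers had ratios above 0 in the same comparison, with a median of 0.67.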
